A study of Mus musculus with 12 samples.

Results

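The *Ighm* and B lineage genes are 9 genes of the 54232 in a count table of mouse liver RNA, and 8 of them were among the 17509 genes with enough reads to test. They are *Ighm* and *Ighd*, which encode the constant regions of the immunoglobulin M and D heavy chains, the light chain constant genes *Igkc* and *Iglc2*, the joining chain gene *Jchain*, the B cell receptor genes *Cd79a* and *Cd79b*, the B cell surface gene *Ms4a1*, and *Mzb1*, a chaperone gene of antibody secreting cells. The list was selected on the difference in *Ighm* between genotypes in these same livers, so the genotype values of its members are given as a description, with no test.

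RNA was sequenced from whole liver of 6 wild type (WT) mice and 6 mice with a liver knockout of *Marchf6* (LKO), with 1 library per mouse. *Marchf6* encodes a ubiquitin ligase of the endoplasmic reticulum membrane. All 12 were male mice on a C57Bl/6J background, 10 weeks old, fed chow and fasted for 4 h. Total counts ranged from 14860414 to 22111926 per liver.

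LKO mice were *Marchf6* fl/fl AlbuminCre+ and WT mice were their *Marchf6* fl/fl AlbuminCre− littermates, so both groups carried the floxed alleles. The labels spell the knockout genotype "Marchft liver KO". The albumin promoter directs Cre to hepatocytes and not to B cells. The labels name exon 2 as the deleted exon, and the study's methods also call it the third exon. Library numbers run through the WT mice and then the LKO mice, so library order and genotype cannot be told apart.

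The labelled tissue was checked with hepatocyte genes. The summed level of the 9 measured hepatocyte genes ranged from 107613 to 125081 CPM (read counts scaled by library size to a common total) in WT livers and from 96848 to 109497 in LKO livers, and *Alb* was the most abundant of them. *Marchf6*, named *March6* in the annotation, was at 226, 244, 247, 247, 235 and 245 normalized CPM in WT livers 1 to 6. In LKO livers 1 to 6 it was at 204, 230, 211, 224, 249 and 236 normalized CPM. The genotypes overlapped for *Marchf6*, and a count over the whole gene does not report on the loss of 1 exon.

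An antibody is built from paired heavy and light chains. Naive B cells carry immunoglobulin M and D on their surface, where the *Cd79a* and *Cd79b* products pass the signal on, and plasma cells secrete antibody in bulk. Secreted immunoglobulin M is a polymer held together by the joining chain. In the liver B cells are a minor population beside hepatocytes and Kupffer cells, the resident macrophages, and hepatocytes take up and transport immunoglobulins through dedicated receptors.

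*Ighm* (ENSMUSG00000076617) lies on the minus strand at chr12:113418558-113422730 (GRCm38). Its count was 221 reads in the lowest WT liver, 294.5 at the median and 389 in the highest, and 81, 101 and 118 reads in LKO livers. All 6 LKO livers were low and lay below every WT liver, so the groups did not overlap. The normalized level was 18.5 ± 3.18 CPM in WT and 5.4 ± 0.725 CPM in LKO livers (mean ± SD, n = 6 each), and the WT mean was 3.42 times the LKO mean. The log2 fold change of LKO against WT was -1.78 with a standard error (SE) of 0.12. In a bulk sample, fewer cells of a type and less RNA per cell cannot be told apart.

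By the quasi-likelihood test of edgeR, with an adjusted p under 0.05 as the threshold, 75 genes (0.428%) were called between the genotypes, 48 higher in LKO (0.274%) and 27 lower (0.154%). With 1 liver left out the count of called genes ran from 38 without WT liver 5 to 132 without WT liver 3. Of the 8 members tested 1 was called, *Ighm*, lower in LKO. All livers of 1 genotype lay above all of the other in log2 CPM for 228 genes (1.30%) and for 1 of the 8 members. These counts include the gene on which the list was selected and nothing is read from them. As the background for the gene lists given later, 2047 of the 17509 genes (11.7%) had an unadjusted p under 0.05 by edgeR, limma voom called 85 (0.485%) and DESeq2 called 351 (2.00%), and the log2 fold change was positive for 50% of genes.

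**Figure D1:**
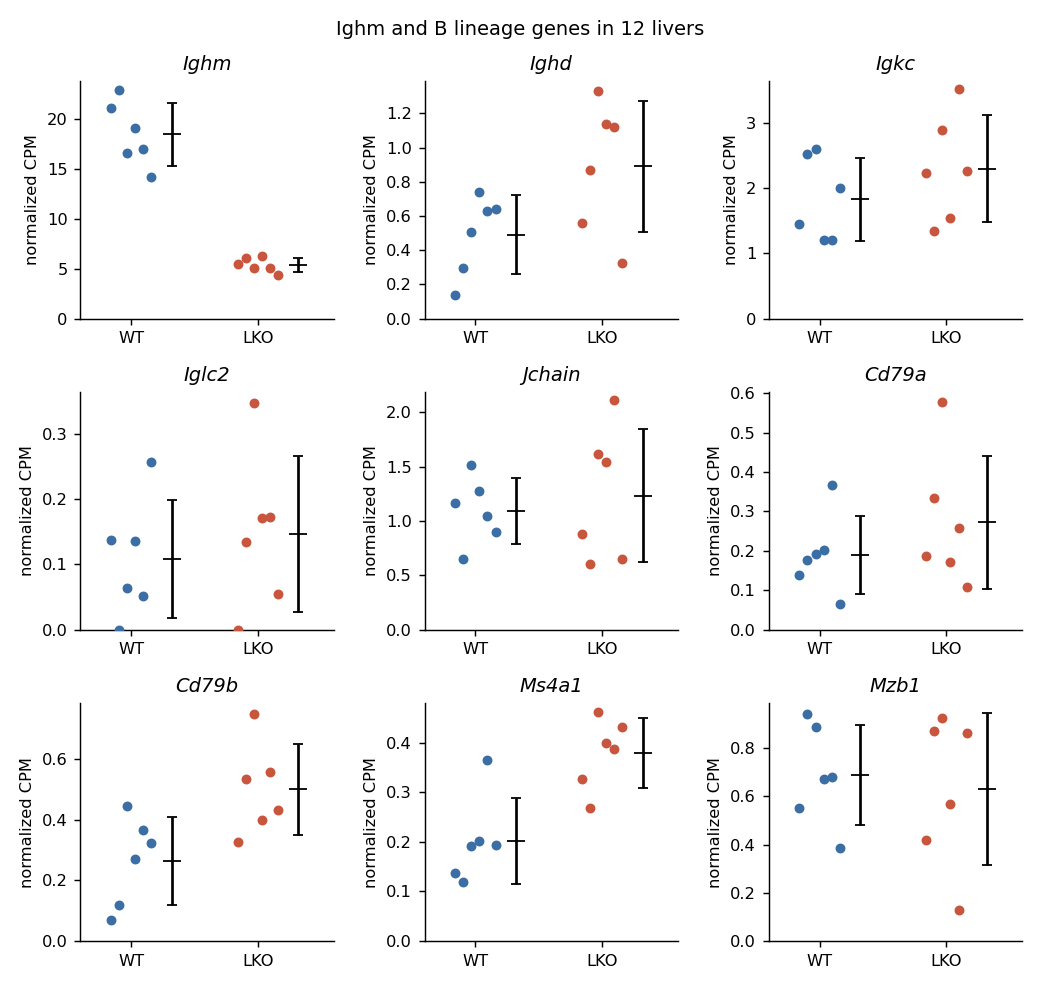
Normalized CPM of each member in 6 WT and 6 LKO livers, 1 panel per gene, each with its own vertical axis from 0. Points are livers, and the black bar beside each group is the mean ± SD. *Ighm* ran from 14.2 to 22.9 CPM in WT and from 4.38 to 6.32 CPM in LKO livers, and the groups of the other 8 genes overlapped.

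*Ighd* (ENSMUSG00000104213) lies 2234 bases downstream of *Ighm*, and both heavy chains are spliced from a shared long transcript in naive B cells. *Ighd* had 2 reads in the lowest WT liver, 9 at the median and 12 in the highest, and 6, 16.5 and 26 reads in LKO livers. In *Ighd* 4 LKO livers lay above all WT livers, and LKO livers 1 and 6 lay within the WT range. The log2 fold change of *Ighd* was 0.83 (SE 0.38), the opposite sign to that of *Ighm*.

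The kappa light chain pairs with heavy chains of every class. *Igkc* (ENSMUSG00000076609), at chr6:70726435-70726966, had 18, 27 and 43 reads at the lowest, median and highest WT liver and 20, 45 and 82 reads in LKO livers. In normalized CPM the groups overlapped, with 2 LKO livers above all WT livers. Its log2 fold change was 0.34 (SE 0.27), and it was 0.17 without LKO liver 5. The difference of the log2 fold changes, *Ighm* minus *Igkc*, was -2.12.

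*Iglc2* (ENSMUSG00000076937), a lambda light chain gene, had between 0 and 4 reads in WT livers and between 0 and 6 in LKO livers. It did not pass the filter on low counts and no fold change is given. *Iglc2* and *Iglc3* are near-identical copies, so the split of reads between them is uncertain.

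*Jchain* (ENSMUSG00000067149) encodes the chain that joins immunoglobulin M and A into polymers. It had 11, 18 and 24 reads at the lowest, median and highest WT liver and 9, 23 and 49 reads in LKO livers. LKO livers lay both above and below the WT range, and 3 of the 6 were above it. Its log2 fold change was 0.19 (SE 0.32), and it was -0.042 without LKO liver 5, which held the 49 reads.

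*Mzb1* (ENSMUSG00000024353) encodes an endoplasmic reticulum protein that helps to assemble immunoglobulin M. It had 6, 11.5 and 16 reads at the lowest, median and highest WT liver and 3, 11.5 and 16 reads in LKO livers. The groups overlapped over nearly their whole range, and LKO liver 5 was the low one. For *Mzb1* the log2 fold change was -0.17 (SE 0.37), and without LKO liver 5 it was 0.065.

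*Cd79a* (ENSMUSG00000003379) and *Cd79b* (ENSMUSG00000040592) encode the signalling pair of the B cell receptor. *Cd79a* had 1, 3 and 7 reads at the lowest, median and highest WT liver and 2, 4.5 and 10 in LKO livers. *Cd79b* had 1, 4.5 and 7 reads in WT and 7, 8 and 13 in LKO livers. Both genes overlapped between genotypes at these low counts, and for *Cd79b* all 6 LKO livers were above the WT mean in normalized CPM. The log2 fold changes were 0.45 (SE 0.45) for *Cd79a* and 0.88 (SE 0.37) for *Cd79b*. That of *Cd79a* was 0.10 without LKO liver 3, 0.28 without WT liver 6 and 0.77 without WT liver 5.

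*Ms4a1* (ENSMUSG00000024673) encodes CD20, a surface protein of mature B cells that plasma cells lack. It had 2, 3 and 7 reads at the lowest, median and highest WT liver and 4, 7.5 and 9 in LKO livers. All 6 LKO livers were above the WT mean in normalized CPM, 4 of them above every WT liver, and WT liver 5 was the high one of its group. *Ms4a1* had a log2 fold change of 0.87 (SE 0.31). All 7 members tested other than *Ighm* had groups that overlapped, and their log2 fold changes ran from -0.17 to 0.88.

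Levels of different genes were compared per kilobase (kb) of exon. In WT livers *Ighm* was the highest member at 9.8 ± 1.69 CPM per kb, followed by *Igkc* at 3.44 ± 1.2 CPM per kb. In LKO livers *Igkc* came first at 4.32 ± 1.54 CPM per kb and *Ighm* next at 2.86 ± 0.384 CPM per kb (mean ± SD, n = 6). The gap between them was wider than the SD of either gene in WT livers and within the SD of *Igkc* in LKO livers.

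The order below these genes was the same in both genotypes, namely *Mzb1*, *Jchain*, *Ighd*, *Cd79b*, *Iglc2*, *Cd79a* and *Ms4a1*. *Mzb1* had 0.566 ± 0.17 CPM per kb in WT livers and *Ms4a1* had 0.0325 ± 0.0142. Several neighbours in this order did not differ beyond their spread in either genotype, such as *Mzb1* and *Jchain*, *Ighd* and *Cd79b*, and *Cd79b* and *Iglc2*.

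Within each liver, the reads of *Ighm* were set against those of the other chains, which needs no scaling between libraries. These shares and ratios hold the *Ighm* count on which the list was selected, so they are given as a description. *Ighm* took 81.1%, 89.3% and 90% of the reads on the 8 heavy chain constant genes at the lowest, median and highest WT liver, and 50.4%, 63.9% and 74.6% in LKO livers. All LKO livers were below all WT livers. The 95% Wilson interval was 76.4% to 85% in WT liver 3, the lowest of its group, and 66.2% to 81.5% in LKO liver 2, the highest of its group, so the intervals of these 2 livers overlapped. These intervals cover counting error only, with reads taken as independent, and not the spread between mice. Several reads can come from the same molecule, so the intervals may be too narrow.

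The ratio of *Ighm* to *Igkc* reads was 6.37, 11.6 and 15.8 at the lowest, median and highest WT liver and 1.43, 2.19 and 4.55 in LKO livers. These ratios did not overlap between the genotypes, and they carry the selected difference in *Ighm*. Per kb of exon the ratio of the median WT liver was 3.26, against 0.619 for the median LKO liver. The ratio of *Ighm* to *Jchain* reads ran from 10.9 to 35.4 in WT and from 2.39 to 10.1 in LKO livers, and did not overlap between the genotypes either. The ratio of *Ighm* to *Igha*, the most abundant other heavy chain gene, ran from 5.93 to 17.8 in WT and from 1.87 to 8.27 in LKO livers, and these overlapped, with 5 LKO livers below all WT livers.

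The reads of the heavy chain constant genes other than *Ighm* moved between 34 and 61 per WT liver and between 31 and 115 per LKO liver. Their summed level was 2.66 ± 0.676 CPM in WT and 3.45 ± 1.15 CPM in LKO livers, a difference within the spread of the LKO livers. The summed light chain constant genes were at 2.12 ± 0.612 CPM in WT and 2.74 ± 1.03 CPM in LKO livers, and both sums overlapped between the genotypes.

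**Figure D2:**
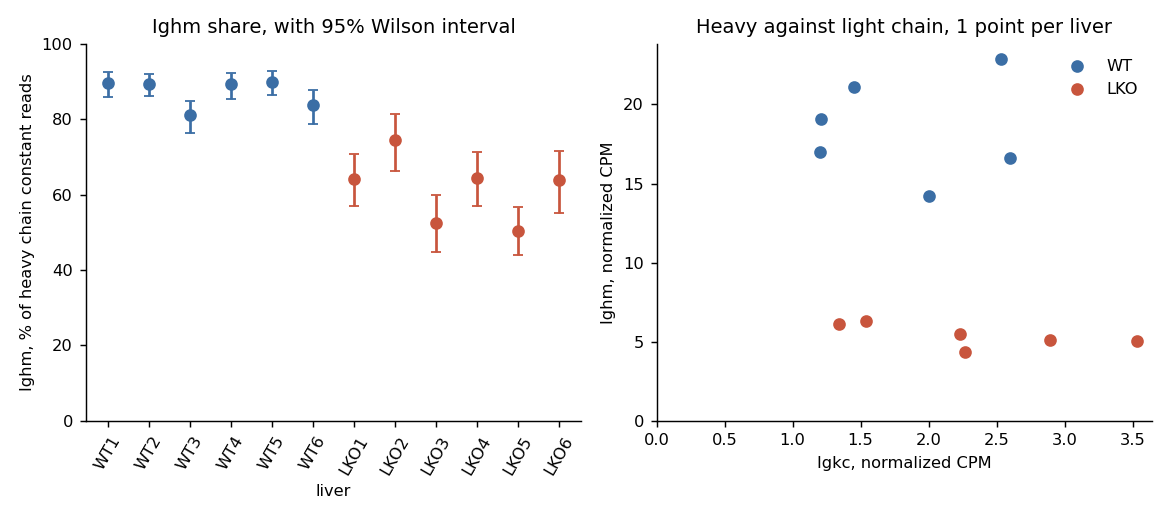
Left, *Ighm* reads as a percent of the reads on 8 heavy chain constant genes in each liver, with the 95% Wilson interval. Right, normalized CPM of *Ighm* against *Igkc*, 1 point per liver. WT shares lie between 81.1% and 90% and LKO shares between 50.4% and 74.6%, while *Igkc* overlaps between the genotypes, from 1.2 to 2.6 CPM in WT and from 1.34 to 3.53 CPM in LKO livers.

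Rearranged antibody transcripts also carry a variable segment. The 113 heavy chain variable genes together had 3, 9 and 14 reads at the lowest, median and highest WT liver and 5, 10.5 and 17 reads in LKO livers. The heavy chain variable sums overlapped between genotypes and were small beside the 221 to 389 *Ighm* reads of a WT liver. The 100 kappa variable genes had 48 reads over the 6 WT livers, against 177 on *Igkc*, and 78 over the LKO livers, against 269 on *Igkc*. Over all WT livers there were 50 heavy chain variable reads and 1784 *Ighm* reads, and over all LKO livers 63 and 606. No variable gene had enough reads to be tested, and how well rearranged reads align to germline genes was not tested.

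The count of *Ighm* pools both ends of its transcript. The annotation holds a secreted form of 4 exons (1493 bases) and a membrane form of 6 exons (1698 bases), which share their first 1305 bases and differ in the coding end shown here to make plain what a gene count does not separate. Each sequence runs 5′ to 3′ on the minus strand of GRCm38, with the last 30 shared bases in lower case and the bases particular to the form, up to and with the stop codon, in capitals. The secreted end lies at chr12:113420867-113420958 within exon 4, and the membrane end is spliced from exons 4, 5 and 6 between the bases chr12:113418826-113420958.
Ighm secreted end: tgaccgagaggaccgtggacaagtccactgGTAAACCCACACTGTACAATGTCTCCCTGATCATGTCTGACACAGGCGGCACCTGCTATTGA
Ighm membrane end: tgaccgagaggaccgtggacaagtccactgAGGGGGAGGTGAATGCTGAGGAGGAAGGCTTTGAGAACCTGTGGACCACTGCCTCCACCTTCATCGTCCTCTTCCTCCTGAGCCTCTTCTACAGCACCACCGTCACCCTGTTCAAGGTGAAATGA
The capitals of the secreted form hold 62 bases and those of the membrane form 125 bases. Which form the *Ighm* reads came from was not analysed here.

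The other immunoglobulin constant genes were 9, of which 2 were tested, *Igha* and *Ighg2b*, and 2 had no read in any liver, *Ighe* and *Iglc4*. *Igha*, the heavy chain of mucosal antibodies and the most abundant of this list, was at 1.79 ± 0.65 CPM in WT and 1.89 ± 0.711 CPM in LKO livers. *Ighg2b*, a heavy chain of immunoglobulin G, had 15 reads over the WT and 44 over the LKO livers, and its log2 fold change was 1.25 (SE 0.52, adjusted p = 0.354). *Iglc3*, the next in level, had 10 reads over the WT and 18 over the LKO livers. Neither tested gene was called by edgeR, limma voom or DESeq2, and 1 had an unadjusted p under 0.05.

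**Figure D3:**
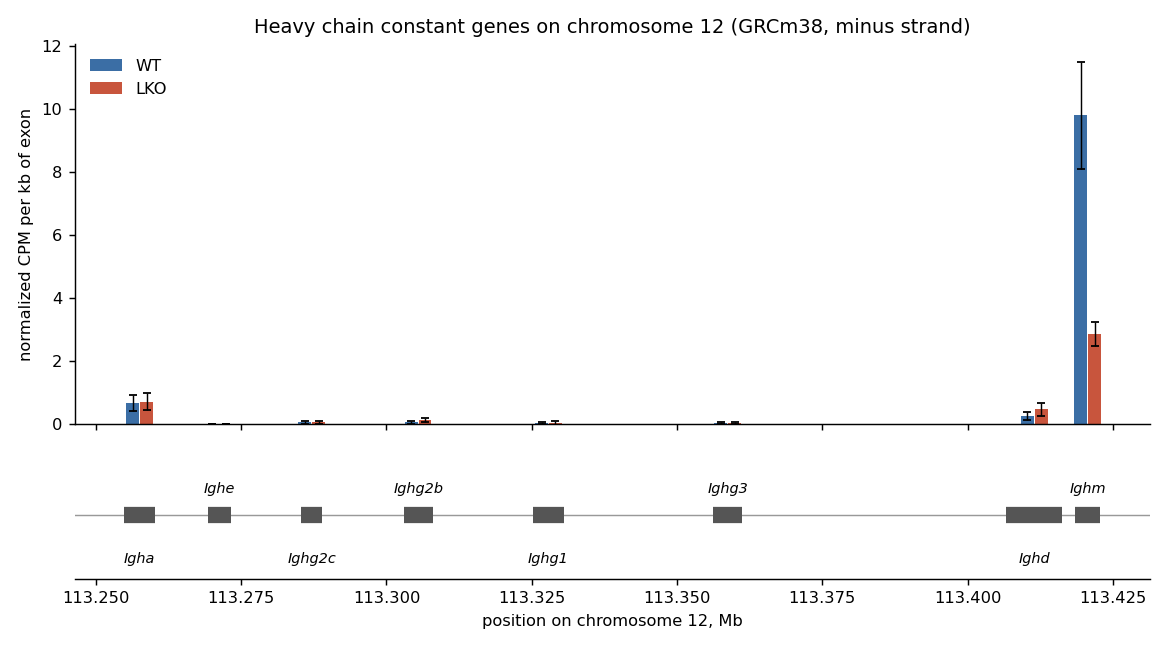
Upper panel, mean normalized CPM per kb of exon for the heavy chain constant genes, with SD over 6 livers. Lower panel, their positions on chromosome 12 (GRCm38). *Ighm* stands at 9.8 CPM per kb in WT and 2.86 in LKO livers, while the means of the other 7 genes stand below 1 CPM per kb in both.

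The genes around *Ighm* on the chromosome were also read. Within 1 Mb of it 20 protein-coding genes were tested, and edgeR, limma voom and DESeq2 called 0 of them, with 2 at an unadjusted p under 0.05. Their log2 fold changes ran from -0.18 for *Cdca4* to 1.04 for *Gpr132*, with a median of 0.061. *Gpr132*, a receptor gene of lymphocytes and macrophages, had only 25 reads over the WT and 61 over the LKO livers. The kinase gene *Akt1* was at 48.3 CPM in WT and 48 CPM in LKO livers, *Mta1* was at 33.8 and 35.8 CPM, and *Crip1* was at 1.48 and 1.55 CPM.

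Mature B cell genes other than the members were a list of 22, of which 20 were tested. None was called by edgeR, limma voom or DESeq2, 4 of the 20 had an unadjusted p under 0.05, beside 11.7% of all genes tested, and 15 had a positive log2 fold change (16 under upper-quartile scaling), beside 50% of all genes. The median log2 fold change was 0.51 (0.43 with a gene at 3 or fewer reads in every WT liver set to its bound), where the median over all genes tested was 0.00016. Their summed level was 17.2, 23.2 and 32.2 CPM at the lowest, median and highest WT liver and 19.7, 25.2 and 32.8 CPM in LKO livers. This sum was carried by *Bach2*, a repressor gene also used outside B cells, at 14.3 ± 6.35 CPM in WT and 11.9 ± 4.06 CPM in LKO livers.

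*Ly6d*, a surface protein gene of B lineage cells, was at 0.928 ± 1.28 CPM in WT and 3.17 ± 5.88 CPM in LKO livers. LKO liver 1 held 326 of the 398 LKO reads and WT liver 2 held 59 of the 92 WT reads, and without these livers *Ly6d* was at 0.419 ± 0.304 CPM in WT and 0.768 ± 0.313 CPM in LKO livers. *Blnk*, an adaptor of B cell receptor signalling, was at 1.61 ± 0.332 CPM in WT and 1.55 ± 0.659 CPM in LKO livers. The 17 genes of the list with a mean under 1 CPM, a division made after the values were seen, summed to 3.59, 4.54 and 5.44 CPM in WT and 5.21, 5.87 and 8.31 CPM in LKO livers at the lowest, median and highest. Of the LKO livers 4 lay above all WT livers. Among the 17 genes *Fcmr*, a receptor for immunoglobulin M chosen after its values were seen, had 7 reads over the WT and 24 over the LKO livers.

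Of 12 plasma cell genes 11 were tested. None was called by edgeR or limma voom, DESeq2 called 1, and 4 had an unadjusted p under 0.05. The median log2 fold change was -0.13, and 4 of the 11 were positive. The most abundant were *Xbp1*, a driver of the secretory program, at 246 ± 76.6 CPM in WT and 225 ± 29.2 CPM in LKO livers, *Txndc5*, a protein disulfide isomerase gene, at 165 ± 16.5 and 160 ± 17.5 CPM, and *Sdc1*, a surface proteoglycan gene, at 165 ± 34.6 and 142 ± 10.4 CPM. Hepatocytes use these 3 genes as well, so the summed level of 523 to 799 CPM in WT and 514 to 602 CPM in LKO livers does not stand for plasma cells. *Tnfrsf17*, which marks plasma cells more closely, had 0 reads over the WT and 2 over the LKO livers. *Derl3*, *Tent5c* and *Fkbp11*, chosen after their values were seen, had log2 fold changes of -1.24 (SE 0.41), -0.98 (SE 0.27) and -0.51 (SE 0.16), with adjusted p values of 0.232, 0.134 and 0.217 by edgeR. *Prdm1*, a regulator of plasma cell fate named for the same reason, had a log2 fold change of 0.90 (SE 0.35, adjusted p = 0.319 by edgeR). These 4 were the genes of the list with an unadjusted p under 0.05, and the other positive values were 0.64 for *Irf4*, 0.29 for *Eaf2* and 0.26 for *Slamf7*. DESeq2 called *Tent5c*.

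The B progenitor and germinal centre genes were 9, with 4 tested. None was called by edgeR or limma voom, DESeq2 called 1, *Dntt*, and 1 had an unadjusted p under 0.05. *Rag1* and *Rag2*, which cut the antibody genes for rearrangement in progenitors, had 0 reads in every liver. *Dntt*, which adds bases at the joints, was at 4.33 ± 2.37 CPM in WT and 9.66 ± 3.63 CPM in LKO livers, with a log2 fold change of 1.15 (SE 0.32, adjusted p = 0.147 by edgeR). With each liver left out in turn, edgeR called *Dntt* without WT liver 2 only. *Bcl6*, a repressor gene that hepatocytes also express, was at 51.5 ± 34.2 and 39.8 ± 36.4 CPM and *Cd93* at 5.54 ± 1.62 and 6.91 ± 2.9 CPM. The list had 2 positive log2 fold changes of 4 and a median of -0.02.

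The genes that bind or carry immunoglobulins were a list of 9, all tested. Of these 1 was called by edgeR, lower in LKO, and limma voom also called it. The called gene was *Pigr*, the polymeric immunoglobulin receptor, which carries antibody bound to the joining chain across epithelia. Its level was 1235, 1399 and 1494 CPM at the lowest, median and highest WT liver and 717, 986 and 1102 CPM in LKO livers. All 6 LKO livers were below every WT liver, beside 1.30% of all genes with groups that did not overlap. The log2 fold change of *Pigr* was -0.54 (SE 0.093, adjusted p = 0.0171 by edgeR). Over the alternatives run the adjusted p of *Pigr* lay between 1.58e-05 with DESeq2 and 0.0589 without WT liver 5, and it was 0.05 without WT liver 4. These were the 2 alternatives in which the call was lost. The log2 fold change of *Pigr* was -0.51 without WT liver 5 and -0.52 without WT liver 4, and lay between -0.58 and -0.47 over all alternatives run.

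*Fcgrt*, the receptor that recycles immunoglobulin G, was at 143 ± 7.61 CPM in WT and 153 ± 9.35 CPM in LKO livers. *Cd5l*, a macrophage protein bound to circulating immunoglobulin M, was at 33.2 ± 4.43 CPM in WT and 46.7 ± 10.9 CPM in LKO livers, with a log2 fold change of 0.49 (SE 0.14, adjusted p = 0.142 by edgeR). DESeq2 called 3 genes of the list, beside 2.00% of all genes. At an unadjusted p under 0.05 there were 4 of 9, beside 11.7% of all genes, namely *Pigr* and, with positive log2 fold changes, *Cd5l* and the immunoglobulin G receptor genes *Fcgr1* (0.52, SE 0.19) and *Fcgr3* (0.53, SE 0.14), the last 2 named after their values were seen. In the list 7 of 9 genes had a positive log2 fold change, with a median of 0.23.

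**Figure D4:**
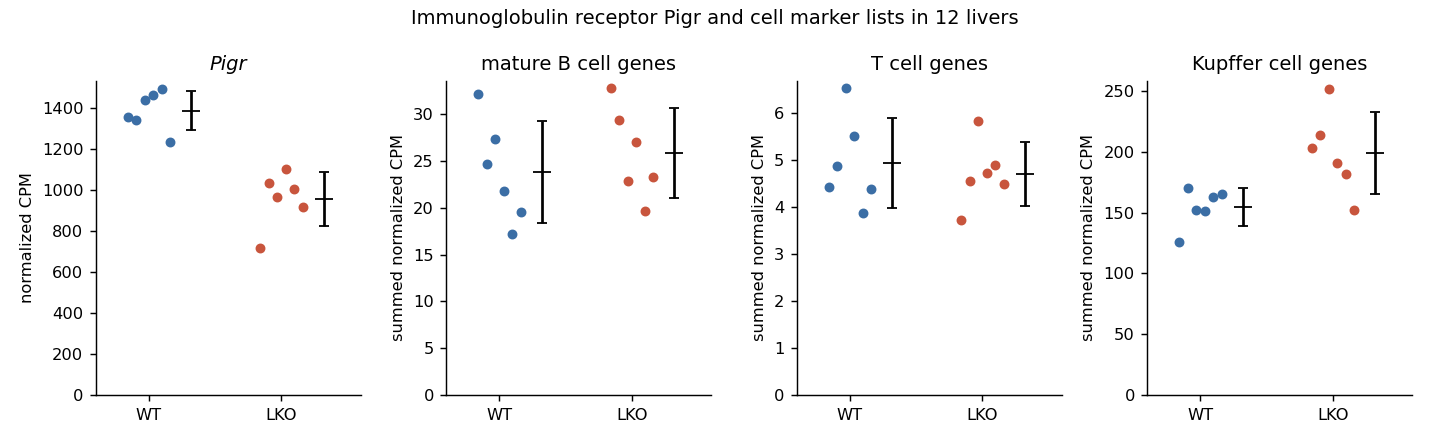
Normalized CPM of *Pigr* and summed normalized CPM of 3 marker lists in each of 12 livers, every vertical axis from 0. Points are livers, and the black bar beside each group is the mean ± SD. *Pigr* lies between 1235 and 1494 CPM in WT and between 717 and 1102 CPM in LKO livers, while the marker lists overlap.

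Markers of other blood cells were read in the same livers. Of 14 T cell genes 10 were tested, 5 had a positive log2 fold change and the median was -0.017. By edgeR, limma voom and DESeq2 0 T cell genes were called, and 0 had an unadjusted p under 0.05. Their summed level was 3.87, 4.65 and 6.54 CPM at the lowest, median and highest WT liver and 3.72, 4.64 and 5.83 CPM in LKO livers. *Cd4*, also used by macrophages, led this list at 1.9 ± 0.401 and 1.48 ± 0.537 CPM, with *Lck* at 0.492 ± 0.156 and 0.616 ± 0.215 CPM and *Themis* at 0.314 ± 0.222 and 0.405 ± 0.297 CPM. Of 9 natural killer cell genes 5 were tested and 4 were positive, with a median of 0.75 (0.49 with a gene at 3 or fewer reads in every WT liver set to its bound) and sums of 1.11 to 2.03 CPM in WT and 0.865 to 3.46 CPM in LKO livers. None of the 5 was called by the 3 tools, and 2 had an unadjusted p under 0.05. *Klrk1* led them, with *Gzma* and *Gzmb* next.

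All 12 Kupffer cell genes were tested and all 12 had a positive log2 fold change, with a median of 0.35, also under the RLE and upper-quartile scalings. None was called by edgeR or limma voom, DESeq2 called 2, beside 2.00% of all genes, and 9 had an unadjusted p under 0.05, beside 11.7% of all genes. Their summed level was 126, 157 and 170 CPM at the lowest, median and highest WT liver and 152, 197 and 252 CPM in LKO livers. Of the LKO livers 5 lay above all WT livers. *Clec4f*, a lectin gene of Kupffer cells, was the most abundant at 45 ± 4.32 and 59.1 ± 9.22 CPM, before *Csf1r* at 20.1 ± 2.12 and 27 ± 5.86 CPM and *C1qa* at 17.6 ± 3.36 and 22.1 ± 3.92 CPM. Their part in the values of *Ighm* and *Pigr* was not tested.

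The plasmacytoid dendritic cell list had 6 of 8 genes tested, 5 of them positive with a median of 0.17, and a sum of 114 to 125 CPM in WT and 120 to 140 CPM in LKO livers that *Bst2*, *Tcf4* and *Irf8* led. The neutrophil list had 4 of 9 genes tested, 3 of them positive with a median of 1.51 (1.35 with a gene at 3 or fewer reads in every WT liver set to its bound), and a sum of 5.13 to 63.2 CPM in WT and 5.92 to 34.2 CPM in LKO livers that *Lcn2* led, before *Csf3r* and *S100a9*. *S100a9* had 19 reads over the WT and 99 over the LKO livers, of which LKO liver 1 held 47. *S100a8*, chosen after its values were seen, had 4 and 74 reads, of which LKO liver 1 held 38. It passed the filter on low counts through the LKO livers alone. For both genes all 6 LKO livers lay above every WT liver, beside 1.30% of all genes with groups that did not overlap. Without LKO liver 1, *S100a9* was at 0.578 ± 0.276 CPM in LKO livers, against 0.203 ± 0.102 CPM in WT livers. *S100a8* was then at 0.405 ± 0.237 CPM, against 0.0434 ± 0.0553 CPM in WT livers. The red cell list had 8 of 8 genes tested, 6 of them positive with a median of 0.17, and a sum of 199 to 237 CPM in WT and 184 to 279 CPM in LKO livers that *Alas2*, *Hbb-bs* and *Hbb-bt* led. By edgeR and limma voom 0 genes of these 3 lists were called, by DESeq2 2 neutrophil genes, and at an unadjusted p under 0.05 there were 0, 3 and 2. Of the 9 hepatocyte genes, led by *Alb*, *Apoa1* and *Fgb*, 1 was positive, the median was -0.14, none was called by the 3 tools and 3 had an unadjusted p under 0.05.

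Whether members moved together from liver to liver was read from deviations from the genotype mean of log2 CPM over 12 livers, in 6 pairs. *Ighm* and *Igkc* had Pearson r = -0.32 (permutation p = 0.331, adjusted p = 0.681) and Spearman rho = -0.29 (permutation p = 0.384, adjusted p = 0.794). Within WT livers r was -0.013 and within LKO livers -0.70, and without the 2 livers farthest from the median of *Ighm* it was -0.61. *Ighm* and *Ighd* had r = -0.18 (permutation p = 0.606) and rho = -0.24 (permutation p = 0.488). Their r was -0.66 within WT and 0.53 within LKO livers, opposite signs, and 0.035 without the 2 farthest livers. *Ighm* and *Jchain* had r = -0.10 (permutation p = 0.759) and rho = -0.084 (permutation p = 0.794), with r at -0.31 within WT and 0.049 within LKO livers, and 0.0076 without the 2 farthest.

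*Ighm* and *Cd79a* had r = 0.25 (permutation p = 0.454) and rho = 0.13 (permutation p = 0.709), with r at 0.29 within WT and 0.21 within LKO livers, and -0.018 without the 2 farthest. *Igkc* and *Jchain*, both abundant in plasma cells, had r = 0.28 (permutation p = 0.4) and rho = 0.43 (permutation p = 0.191), with r at -0.27 within WT and 0.59 within LKO livers, and -0.19 without the 2 farthest. The B cell genes *Cd79a* and *Ms4a1* had r = 0.31 (permutation p = 0.332) and rho = 0.20 (permutation p = 0.55), with r at 0.54 within WT and -0.021 within LKO livers, and 0.30 without the 2 farthest. No pair passed the threshold after adjustment over the 6 pairs, with adjusted p values for r from 0.681 to 0.759. A p above the threshold over 12 livers does not show that an association is absent.

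The genes most like *Ighm* were sought among 12774 other genes with a mean of at least 1 CPM. Over log2 CPM of the 12 livers they included *Zmpste24* (r = 0.93), and *Enpp2*, *Slc22a7* and *Aox3* (each r = 0.92). This measure holds the genotype difference itself, and these 4 had lower means in LKO livers, such as *Slc22a7*, an organic anion transporter gene, at 57.1 ± 12.5 CPM in WT and 15 ± 5.55 CPM in LKO livers, and *Aox3*, an aldehyde oxidase gene, at 819 ± 185 and 380 ± 76.2 CPM. Over deviations from the genotype means the 5 were *Sec24b* (r = 0.96), *Dph6*, *Tmem203* and *Cyb5b* (each r = 0.92) and the pseudogene *Gm2996* (r = 0.90). By either measure these r are the highest of 12774 values over 12 livers, and they were not tested against chance.

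None of these 9 is a B lineage gene on the lists used here. The search left out the 17 mature B cell genes with a mean under 1 CPM. It also left out the members *Ighd*, *Iglc2*, *Cd79a*, *Cd79b*, *Ms4a1* and *Mzb1*, so nothing is read from this absence. On the 12 livers the r of *Ighm* with the other members ran from -0.83 for *Ms4a1* to 0.24 for *Mzb1*, and over deviations from the genotype means from -0.62 for *Cd79b* to 0.25 for *Cd79a*.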

How the data were processed

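The authors deposited raw read counts per gene, without normalization, for 12 libraries, and 0 columns of other samples were present. The submitters' processing notes name FastQC 0.11.15, Picard, Trimmomatic 0.36, HISAT2 2.1.0, HTSeq 0.6.1 and the build GRCm38.p6. The strand setting and overlap mode of the counting are not given in the sources used here. Names, positions and exon lengths came from GENCODE M21, which held 54079 of 54232 gene identifiers.

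A gene was kept if 6 or more livers each had over 2 reads. Library sizes were scaled by TMM, and edgeR 4.0.16 (R 4.3.3) fitted genotype alone by quasi-likelihood; p-values were adjusted by Benjamini-Hochberg over the whole table kept. CPM values were TMM-scaled, and log2 CPM used a prior count of 0.5. Correlations were tested, two-sided, with 100000 permutations within genotype. Alternatives used limma 3.58.1 and DESeq2 1.42.0, other scalings and filters, a replicate block, and each liver left out. Counts of members called and of genes not overlapping were added to the alternatives after the data were seen. The fit was tested on simulated data.

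The text names the 9 members, every listed gene with an adjusted p under 0.05, the 3 most abundant genes of each list, the 5 genes most like *Ighm* by each of 2 measures, and protein-coding genes within 1 Mb of *Ighm*. Of the genes this rule takes, 1 is not reported here. Other names were chosen after their values were seen. Members and lists were chosen with earlier results of these data known.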

Additional observations from a re-analysis of the deposited data

Results flagged for a closer look

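In 3 of 48 groups of 6 livers searched, the gap from the highest liver to the next, as a share of the group's whole range, was above Dixon's 95% critical value for 6 values. Chance gives such a gap in about 1 in 20 groups, or 2.4 of 48. *Ms4a1* was at 0.366 CPM in WT liver 5 and at 0.202 CPM in the next liver of its group, a gap of 0.661 of the range that rests on 7 reads. The summed B progenitor and germinal centre genes were at 131 CPM in LKO liver 2 and at 61 CPM in the next, a gap of 0.669 of the range. The summed neutrophil genes were at 63.2 CPM in WT liver 2 and at 16.9 CPM in the next, a gap of 0.798 of the range.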

How the results depend on the processing

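The log2 fold change of *Ighm* lay between -1.84 and -1.71 with each liver left out in turn and between -1.78 and -1.76 under the 9 other alternatives. The difference of the log2 fold changes of *Ighm* and *Igkc* lay between -2.27 and -1.93 with a liver left out and between -2.13 and -2.11 otherwise. Among members tested without a call, *Jchain* and *Mzb1* changed sign without LKO liver 5. *Jchain* lay between -0.042 and 0.32 with a liver left out and between 0.11 (limma voom) and 0.21 otherwise, and *Mzb1* between -0.32 and 0.065 and between -0.42 (limma voom) and -0.15.

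The 75 genes called became 114 without a filter and 351 with DESeq2, and ran from 38 without WT liver 5 to 132 without WT liver 3. The 1 listed gene called outside the members became 2 without a filter (*Pigr* and *S100a8*), 9 with DESeq2 and 3 with the replicate block (*Pigr*, *Tent5c* and *S100a8*). It ran from 0 without WT liver 4 or WT liver 5 to 2 without WT liver 2 (*Pigr* and *Dntt*). The causes were not tested. The count of genes not overlapping was 228 under RLE and 235 under upper-quartile scaling.

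With the replicate block 97 genes were called. The labels name no shared litter or day for a number, and the numbers were not taken to pair the mice because not every same-numbered pair had deviations that correlated over 0.1. The correlations lay between -0.0649 and 0.135, 4 of 6 were over 0.1, and 5 of 12 livers correlated best with their own number, a hint from the data only. None of the 6 associations between members passed the threshold under any alternative.

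Depth limits the members with few reads. *Iglc2* was too low to test, and *Cd79a*, *Cd79b* and *Ms4a1* had at most 13 reads in any liver, so counting error is large for them.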
